A study of Mus musculus with 46 samples.

Results

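The insulin-like growth factor (IGF) axis was followed through 10 genes: the ligands Igf1 and Igf2, the receptors Igf1r and Insr, the adaptors Irs1 and Irs2, the binding proteins Igfbp2, Igfbp4 and Igfbp5, and Ddit4. They were taken by gene symbol from 52636 genes in a table of RNA levels, and all 10 are among the 13244 genes that passed the filter on low values (mean level of 3 TPM or more in 1 or more of the rearing groups). The rule was the symbol alone, but the 10 genes and all gene lists were chosen with earlier results of these data known. RNA came from the left hippocampus of Balb/cByj pups at P17, with 1 library per pup and 46 libraries in all. The 16 LB (limited bedding) pups (7 males, 9 females) were raised from birth with little bedding and without a nestlet. The 15 UPS pups (8 males, 7 females) were raised under unpredictable postnatal stress, which is not described further in the sources used here. The 15 CTL (control) pups (6 males, 9 females) had ample bedding and a nestlet. The sources used here name no allele or agent for any group, and the dams of LB and CTL litters had no nesting material before the birth.

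In the brain, Igf1 and Igf2 are secreted proteins that bind the Igf1 receptor, and insulin binds the closely related insulin receptor. Both receptors phosphorylate the adaptors Irs1 and Irs2, which recruit PI3-kinase and so activate AKT and the growth kinase mTORC1. Binding proteins hold the ligands in the extracellular space and can limit or prolong their action. Ddit4 (also REDD1) is an inhibitor of mTORC1 whose transcription is induced by glucocorticoids, low oxygen and energy stress. Igf1 is known as a growth factor for neurons and for oligodendrocytes, the myelin-forming cells of the brain.

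Values are given in TPM, a share of all transcripts that is corrected for gene length, so levels can be compared between genes as well as between pups. Differences were tested with limma on log2(TPM + 1) over all 13244 genes, so those of low genes are understated. A rearing difference is the mean of the difference in males and that in females, and it passed at a Benjamini-Hochberg adjusted p under 0.05. Litters are not named in the labels. Each pup was therefore counted as 1 replicate, so n counts pups and not independent litters. Per the methods, whole litters were assigned to LB or CTL at random, and the litters sampled were too few for each pup to have its own. LB and CTL pups thus included littermates, and likeness within a litter would make the p-values too low. The litters of the UPS pups are not described in the sources used here. The bulk tissue does not tell fewer cells of a type from less RNA per cell. The female UPS pup 2 stood apart, with a median correlation of 0.937 with the other libraries, against at least 0.973 for each of those. The female UPS pup 1 has a UPS title but an LB tag in another label, and was kept as UPS. Pups labelled male and female differed at 6638 of 13244 genes (50.1%). On the axis of 6384 autosomal genes among them, the 2 females numbered 9 (1 LB, 1 CTL) lay with the males, at 0.10 and 0.097, where males ranged from 0.039 to 0.17 and the other females from -0.18 to -0.058 (log2, mean deviation). Both number 9 pups carry an earlier name in the table's header, in the form used there for males. All 25 libraries labelled female, these 2 included, had at least 113 TPM of Xist, the RNA of the inactive X, and 0 TPM of the Y-linked Ddx3y, against at most 0.032 TPM of Xist and at least 30.04 TPM of Ddx3y in the libraries labelled male. Beyond these 2 pups, sex and a batch of libraries cannot be told apart, so differences are also given within each sex.

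Among CTL pups the binding protein Igfbp4 was the most abundant of the 10 genes and Igf1 the least. Igfbp4 averaged 107 ± 22.7 TPM (SD, n = 15), Ddit4 78.8 ± 9.76 TPM and Igfbp5 63.5 ± 5.87 TPM. Igfbp4 was above Ddit4 in 14 of 15 CTL pups, and Ddit4 above Igfbp5 in 14 of 15. A middle group followed, with Irs2 at 39.7 ± 2.46 TPM, Igfbp2 at 38.4 ± 10.4 TPM and Igf2 at 30.2 ± 10.5 TPM. Within it the order was not fixed, since Irs2 was above Igfbp2 in 10 of 15 pups and Igfbp2 above Igf2 in 10 of 15. The receptors Igf1r (23.5 ± 1.64 TPM) and Insr (23.2 ± 1.44 TPM) were close, with Igf1r the higher in 9 of 15 pups. Irs1 averaged 13.8 ± 0.97 TPM and Igf1 10.2 ± 1.59 TPM, and Irs1 was above Igf1 in 15 of 15 pups. Igf2 and Igfbp2 were the most variable members among CTL pups, with coefficients of variation of 34.7% and 27.2%, while those of Irs2, Insr, Igf1r and Irs1 were between 6.19% and 7.08%.

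**Figure D1:**
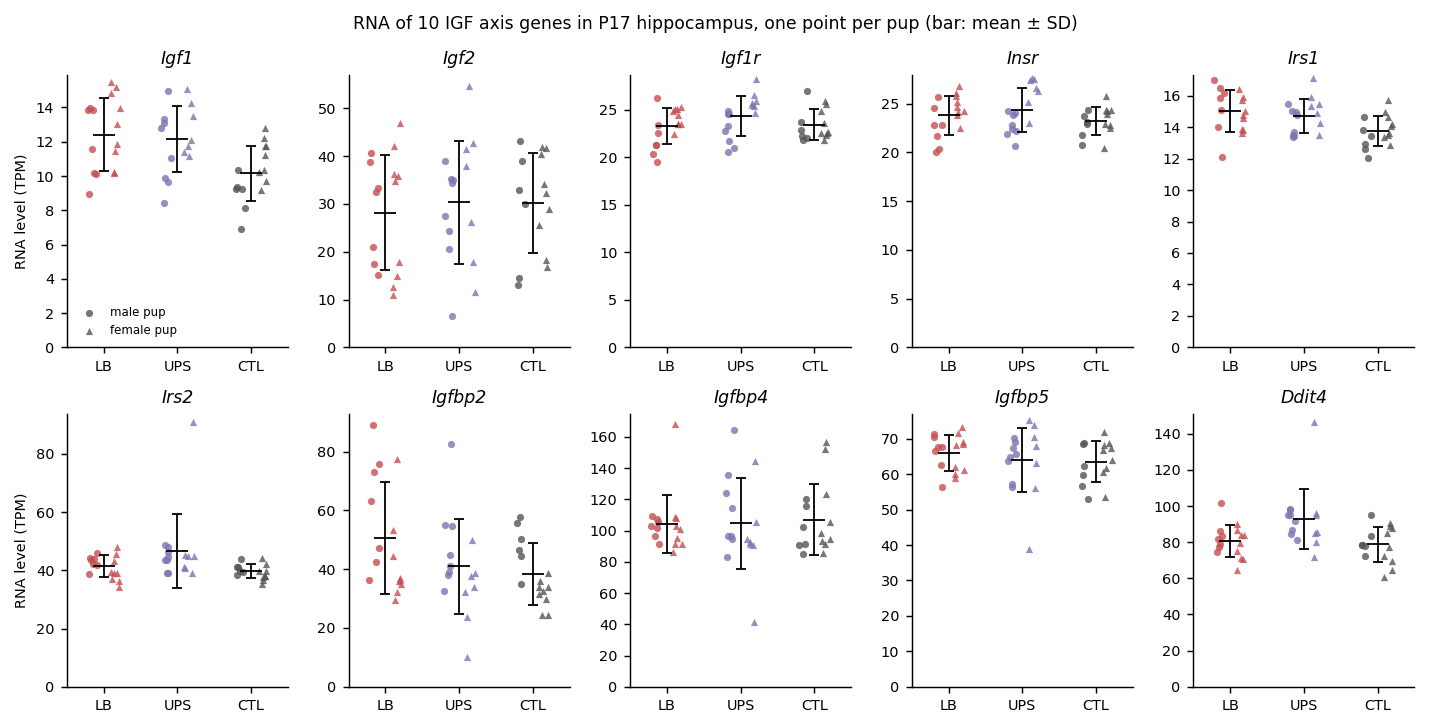
RNA level (TPM, axes from 0) of the 10 genes in each pup, in LB, UPS and CTL, with males as circles and females as triangles; bars give the mean ± SD of the rearing group (n = 16, 15 and 15). Igf1 lies higher in LB and UPS than in CTL, Igf2 spreads widely in every group, and the UPS pup far from the rest for Irs2 (90.9 TPM), Ddit4 (147 TPM), Igfbp4 (41.1 TPM) and Igfbp5 (38.8 TPM) is the female UPS pup 2.

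Igf1 was the only one of the 10 genes that passed the test in either stress rearing against CTL, and it was higher in both. Its gene (ENSMUSG00000020053.18) lies on chromosome 10, from 87858265 to 87937042 on the plus strand (GENCODE annotation of GRCm38, the mm10 genome). In LB pups Igf1 ranged from 8.94 to 15.5 TPM with a median of 12.5 TPM, against 6.91 to 12.8 TPM with a median of 10.2 TPM in CTL pups. The ranges overlapped, with 8 of 16 LB pups above the highest CTL pup and none below the lowest. The mean was 12.4 ± 2.10 TPM in LB (SD, n = 16) and 10.2 ± 1.59 TPM in CTL (SD, n = 15), 22.2% higher in LB. The log2 difference was 0.28 (standard error 0.07, 95% interval 0.14 to 0.43, adjusted p = 0.014 from limma), and 14 of 16 LB pups lay above the CTL mean of their sex. Over all genes, 491 of 13244 (3.71%) were higher in LB and 508 (3.84%) lower, 7.54% in either direction, against 1 of the 10 members.

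In UPS pups Igf1 ranged from 8.41 to 15.1 TPM with a median of 12.1 TPM. Of 15 UPS pups, 7 were above the highest CTL pup and none below the lowest. The mean was 12.2 ± 1.95 TPM in UPS (SD, n = 15), 19.6% above the CTL mean, with a log2 difference of 0.27 (standard error 0.07, 95% interval 0.13 to 0.41, adjusted p = 0.015 from limma), seen in 14 of 15 UPS pups. The share of all genes called was 10% (5.59% higher, 4.44% lower in UPS), again against 1 of the 10 members. Both comparisons use the same CTL pups. Between UPS and LB the log2 difference of Igf1 was -0.01 (95% interval -0.18 to 0.15, adjusted p = 0.95 from limma). Without the female UPS pup 2, Igf1 was higher in UPS by 0.28 on the log2 scale (adjusted p = 0.0091 from limma). In a model of rearing alone, without sex, the UPS difference of 0.24 no longer passed (adjusted p = 0.10 from limma).

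Within each sex Igf1 had the same direction. Male pups averaged 11.8 ± 2.11 TPM in LB (SD, n = 7), 11.7 ± 2.23 TPM in UPS (SD, n = 8) and 8.88 ± 1.19 TPM in CTL (SD, n = 6). Female pups averaged 12.9 ± 2.07 TPM in LB (SD, n = 9), 12.7 ± 1.53 TPM in UPS (SD, n = 7) and 11.02 ± 1.22 TPM in CTL (SD, n = 9). The log2 difference between LB and CTL was 0.36 in males and 0.20 in females, and between UPS and CTL 0.35 in males and 0.19 in females. Taken within one sex, none of these 4 differences passed over all genes (adjusted p between 0.13 and 0.30 from limma). Few genes did, with 0 in males and 3 (0.0227%) in females for LB, and 5 (0.0378%) in males and 217 (1.64%) in females for UPS. The rearing by sex interaction of Igf1 did not pass (adjusted p = 1.00 for LB and 0.96 for UPS from limma). That test passed for 0 of 13244 genes, with 293 (2.21%) for LB and 488 (3.68%) for UPS at an unadjusted p under 0.05. Across all rearings Igf1 was lower in males by a log2 difference of -0.18 (adjusted p = 0.012 from limma), at 10.9 ± 2.27 TPM in males (SD, n = 21) and 12.2 ± 1.82 TPM in females (SD, n = 25). This contrast passed for 50.1% of all genes, and sex cannot be told apart from a batch in it.

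Igf2 (ENSMUSG00000048583, chromosome 7, 142650766 to 142666816, minus strand) is a growth factor expressed from the paternal allele in most tissues and, in the brain, abundant in choroid plexus and meninges. It ranged from 10.97 to 46.9 TPM in LB with a median of 32.9 TPM, from 6.61 to 54.6 TPM in UPS with a median of 34.3 TPM, and from 12.99 to 43.2 TPM in CTL with a median of 32.2 TPM. The groups overlapped over nearly their whole ranges. The log2 difference was -0.11 between LB and CTL (95% interval -0.56 to 0.34, adjusted p = 0.80 from limma) and -0.03 between UPS and CTL (95% interval -0.51 to 0.46, adjusted p = 0.95 from limma). The neighbouring imprinted RNA H19 averaged 1.06 ± 0.56 TPM in LB, 1.28 ± 1.59 TPM in UPS and 0.67 ± 0.36 TPM in CTL, and fell under the filter on low values. Its highest value, 6.76 TPM, was in the female UPS pup 2.

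The receptors were among the steadiest of the 10 genes. Igf1r (ENSMUSG00000005533, chromosome 7, 67952827 to 68233668, plus strand), the tyrosine kinase receptor for both IGF ligands, ranged from 19.5 to 26.2 TPM in LB (median 23.5), 20.6 to 28.3 TPM in UPS (median 24.7) and 21.9 to 27.0 TPM in CTL (median 22.7). Its log2 difference was -0.02 between LB and CTL (95% interval -0.09 to 0.06) and 0.06 between UPS and CTL (95% interval -0.02 to 0.13), with adjusted p of 0.82 and 0.32 from limma. Insr (ENSMUSG00000005534, chromosome 8, 3122061 to 3279617, minus strand), the insulin receptor, ranged from 20.1 to 26.8 TPM in LB (median 24.2), 20.6 to 27.6 TPM in UPS (median 24.0) and 20.5 to 25.8 TPM in CTL (median 23.1). Its log2 difference was 0.03 between LB and CTL (adjusted p = 0.67 from limma) and 0.08 between UPS and CTL (95% interval 0.004 to 0.15, adjusted p = 0.16 from limma).

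The mean of both receptors was higher in UPS than in CTL among females and close to it among males. Among females, Igf1r averaged 26.0 ± 1.14 TPM in UPS and 23.6 ± 1.52 TPM in CTL, and Insr 26.2 ± 1.64 TPM in UPS and 23.5 ± 1.53 TPM in CTL. Among males, Igf1r averaged 22.9 ± 1.69 TPM in UPS and 23.3 ± 1.96 TPM in CTL, and Insr 22.8 ± 1.23 TPM in UPS and 22.8 ± 1.30 TPM in CTL. The difference between the sexes was not past the threshold over all genes for either receptor (adjusted p = 0.96 for both interactions from limma). Across the rearings both receptors were lower in males, with log2 differences of -0.11 for Igf1r (adjusted p = 0.0023 from limma) and -0.12 for Insr (adjusted p = 3.7e-04 from limma). The same contrast passed for 50.1% of all genes and may hold a batch as well as sex.

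The mannose-6-phosphate receptor Igf2r, which takes Igf2 up for degradation, averaged 17.3 ± 1.26 TPM in LB, 18.2 ± 2.18 TPM in UPS and 17.0 ± 1.01 TPM in CTL. It did not pass in either comparison (adjusted p = 0.68 for LB and 0.26 for UPS from limma).

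Both adaptors had positive differences in both stress rearings, short of the threshold. Irs1 (ENSMUSG00000055980, chromosome 1, 82233101 to 82291416, minus strand) ranged from 12.1 to 17.0 TPM in LB with a median of 15.1 TPM, from 13.4 to 17.1 TPM in UPS with a median of 14.9 TPM, and from 12.05 to 15.7 TPM in CTL with a median of 13.6 TPM. Of 16 LB pups, 14 lay above the CTL median, and 11 of 15 UPS pups did. Its log2 difference was 0.13 between LB and CTL (95% interval 0.04 to 0.21, adjusted p = 0.054 from limma) and 0.10 between UPS and CTL (95% interval 0.02 to 0.18, adjusted p = 0.077 from limma). The LB value passed under 6 of the 14 other settings and when any one of 7 pups was left out. Its lowest adjusted p from limma with 1 pup left out was 0.0065, without the male LB pup 5.

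Irs2 (ENSMUSG00000038894, chromosome 8, 10984681 to 11008458, minus strand) ranged from 34.4 to 47.9 TPM in LB (median 42.1), 39.0 to 90.9 TPM in UPS (median 44.5) and 35.4 to 44.2 TPM in CTL (median 39.7). In UPS, 8 of 15 pups were above the highest CTL pup. The value of 90.9 TPM belongs to the female UPS pup 2, and the next female UPS pup had 45.2 TPM. The log2 difference was 0.20 between UPS and CTL (adjusted p = 0.097 from limma). Without that pup it was smaller, 0.12, and passed (adjusted p = 0.030 from limma), so the call turned on this library. Between LB and CTL the log2 difference was 0.06 (95% interval -0.03 to 0.14, adjusted p = 0.41 from limma).

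The binding proteins among the 10 genes did not pass in either comparison. Igfbp2 and Igfbp5 are neighbours on chromosome 1, with 5457 bases between the end of Igfbp2 (ENSMUSG00000039323, 72824503 to 72852474, plus strand) and the start of Igfbp5 (ENSMUSG00000026185, 72857932 to 72874884, minus strand). Igfbp2, a binding protein of developing brain, choroid plexus and astrocytes, ranged from 29.6 to 88.9 TPM in LB with a median of 43.4 TPM, from 10.1 to 82.5 TPM in UPS with a median of 38.8 TPM, and from 24.4 to 57.8 TPM in CTL with a median of 34.9 TPM. In LB, 5 of 16 pups were above the highest CTL pup. The log2 difference was 0.32 between LB and CTL (95% interval 0.07 to 0.58, adjusted p = 0.11 from limma), 0.28 in males and 0.36 in females. It passed without the male LB pup 5 (0.38, adjusted p = 0.038 from limma). Between UPS and CTL it was -0.06 (95% interval -0.37 to 0.26) and turned to 0.06 without the female UPS pup 2, whose 10.1 TPM was the lowest, and between UPS and LB -0.38 (95% interval -0.74 to -0.02, adjusted p = 0.37 from limma).

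Of the 10 genes, Igfbp2 had the largest difference between pups labelled male and female, where sex cannot be told apart from a batch. It averaged 52.6 ± 16.04 TPM in males (SD, n = 21) and 35.7 ± 12.2 TPM in females (SD, n = 25), a log2 difference of 0.58 (adjusted p = 2.0e-04 from limma). Male and female pups differed at 50.1% of all genes. The number 9 pups had the highest value among females of their rearing, 77.6 TPM in LB and 38.7 TPM in CTL. With both counted as males, though their Xist was in the female range, the difference between LB and CTL passed (0.33, adjusted p = 0.049 from limma).

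Igfbp4 (ENSMUSG00000017493, chromosome 11, 99041244 to 99054392, plus strand), which is cleaved by the protease Pappa to release Igf1, ranged from 86.1 to 168 TPM in LB (median 102), 41.1 to 164 TPM in UPS (median 96.5) and 84.7 to 157 TPM in CTL (median 98.5). It differed by -0.02 on the log2 scale between LB and CTL (95% interval -0.20 to 0.16) and -0.06 between UPS and CTL (95% interval -0.33 to 0.20). Igfbp5, a binding protein that attaches to extracellular matrix, ranged from 56.4 to 73.2 TPM in LB (median 67.7), 38.8 to 75.2 TPM in UPS (median 65.6) and 53.1 to 71.9 TPM in CTL (median 64.0). Its log2 difference was 0.06 between LB and CTL (95% interval -0.03 to 0.16) and 0.007 between UPS and CTL (95% interval -0.13 to 0.15). The lowest value of both genes was in the female UPS pup 2.

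Ddit4 (ENSMUSG00000020108, chromosome 10, 59949669 to 59951834, minus strand) had the smallest adjusted p of the 10 genes between UPS and LB, short of the threshold. It ranged from 64.4 to 102 TPM in LB with a median of 80.5 TPM, from 71.9 to 147 TPM in UPS with a median of 91.9 TPM, and from 61.0 to 94.8 TPM in CTL with a median of 78.5 TPM. In UPS, 7 of 15 pups were above the highest CTL pup and 14 of 15 above the CTL median. The log2 difference was 0.22 between UPS and CTL (95% interval 0.07 to 0.37, adjusted p = 0.058 from limma), 0.17 in males and 0.26 in females. Leaving out any one of 5 other pups brought the adjusted p from limma to between 0.033 and 0.050, while without the female UPS pup 2 it was 0.053 with a difference of 0.16. Between UPS and LB the difference was 0.19 (95% interval 0.05 to 0.33, adjusted p = 0.28 from limma), and between LB and CTL 0.03 (95% interval -0.09 to 0.15, adjusted p = 0.80 from limma).

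**Figure D2:**
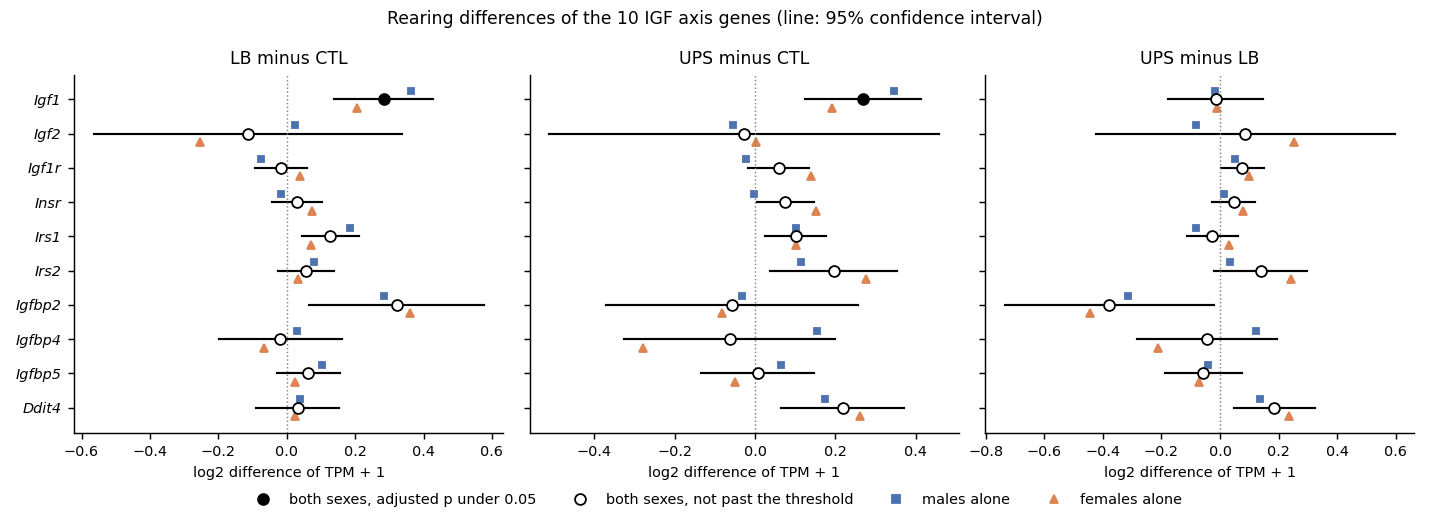
Log2 difference of TPM + 1 for each of the 10 genes in LB minus CTL, UPS minus CTL and UPS minus LB. Circles with 95% intervals give both sexes together, filled at an adjusted p under 0.05, and squares and triangles give males and females alone; only Igf1 is filled, at 0.28 for LB and 0.27 for UPS.

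Taking the 10 genes together, 7 had a positive difference in LB and 7 in UPS (70% in each), beside 52.2% and 49.98% of all 13244 genes. Their median log2 difference was 0.04 in LB and 0.07 in UPS, beside 0.005 and -9.1e-05 over all 13244 genes. Between UPS and LB the median of the 10 was 0.02, none passed, and 6 of all genes did (0.0453%, with 4 higher or 0.0302% and 2 lower or 0.0151%), while 1680 (12.7%) had an unadjusted p under 0.05 in limma. No gene passed the interaction with sex there, with 306 (2.31%) at an unadjusted p under 0.05.

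Other genes of the pathway were taken from a list of 86, of which 69 passed the filter. In LB, 4 of the 69 were higher (5.80%) and 8 lower (11.6%), against 3.71% and 3.84% of all genes. In UPS, 9 were higher (13.04%) and 4 lower (5.80%), against 5.59% and 4.44%. Between UPS and LB none of the 69 passed. The median log2 difference of the list was 0.02 in LB and 0.01 in UPS.

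The binding protein Igfbp6, which prefers Igf2, had the largest difference of the pathway and was lower in both stress rearings. It lies on chromosome 15, from 102144362 to 102149511 on the plus strand. Igfbp6 ranged from 4.99 to 12.9 TPM in LB with a median of 8.37 TPM, from 3.85 to 14.1 TPM in UPS with a median of 9.67 TPM, and from 8.70 to 22.0 TPM in CTL with a median of 13.4 TPM. Every LB pup was below the CTL median and 10 of 16 were below the lowest CTL pup, while 14 of 15 UPS pups were below the CTL median and 4 below the lowest CTL pup. Its log2 difference was -0.64 between LB and CTL (standard error 0.13, adjusted p = 0.0032 from limma), -0.64 in males and -0.64 in females. Between UPS and CTL it was -0.54 (standard error 0.15, adjusted p = 0.019 from limma), -0.78 in males and -0.30 in females, and the adjusted p was 0.052 in a model of rearing alone. Of the other binding proteins, Igfbp3 averaged 31.4 ± 5.99 TPM in LB, 33.5 ± 11.1 TPM in UPS and 30.0 ± 3.03 TPM in CTL, and Igfbp7 averaged 44.96 ± 5.52 TPM in LB, 44.1 ± 5.95 TPM in UPS and 42.9 ± 6.63 TPM in CTL. Neither passed (adjusted p between 0.33 and 0.92 from limma). Igfbp7 overlaps Polr2b (53.5 TPM on average) on the other strand, and the sources used here do not say whether reads were assigned by strand. The binding protein protease Pappa2 (1.23 ± 0.46 TPM in LB, 1.16 ± 0.47 TPM in UPS, 1.03 ± 0.25 TPM in CTL) and the Igf2 mRNA binding protein Igf2bp2 (1.38 ± 0.34 TPM in LB, 1.19 ± 0.44 TPM in UPS, 1.199 ± 0.43 TPM in CTL) were under the filter.

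Among the kinases and adaptors, Gsk3b, a kinase that AKT inhibits, averaged 139 ± 10.5 TPM in LB, 150 ± 22.3 TPM in UPS and 128 ± 8.19 TPM in CTL, with log2 differences of 0.13 for LB (adjusted p = 0.0093 from limma) and 0.23 for UPS (adjusted p = 0.0036 from limma). Its LB call was lost with rearing alone in the model and with all 46 libraries in one fit (adjusted p = 0.059 and 0.068 from limma). Sos1, an exchange factor that activates RAS, had log2 differences of 0.11 in LB and 0.18 in UPS, and the adaptor Dok4 0.24 in LB and 0.14 in UPS, all past the threshold. Of 17 tested PI3K and AKT genes, 5 were higher in UPS (29.4%), 1 was lower (5.88%) and 11 did not pass, with a median log2 difference of 0.01. Over all genes, 5.59% were higher and 4.44% lower in UPS. In LB, 2 of the 17 were higher and 2 lower (11.8% each), beside 3.71% and 3.84% of all genes. Of 20 tested TSC and mTOR genes and 4 FOXO genes, none passed in UPS. The 5 PI3K and AKT genes higher in UPS included the PI3-kinase subunits Pik3ca (0.11) and Pik3r1 (0.21). Of the ERK arm, Braf (0.12) was higher in UPS and Map2k2 (-0.19) was lower. In LB these 4 genes did not pass, with log2 differences between -0.04 and 0.04. Direct tests of UPS against LB passed for none of them.

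Lower in both rearings were Inppl1 (-0.27 in LB and -0.20 in UPS on the log2 scale), a lipid phosphatase also known as SHIP2, and the ERK kinase gene Map2k1 (-0.18 and -0.16). In LB the docking protein Gab1 (-0.27), the adaptor Grb14 (-0.14), which inhibits the insulin receptor, the AKT phosphatase Phlpp1 (-0.11), the transcription factor Foxo4 (-0.14) and Sesn1 (-0.13), an inhibitor of mTORC1, were lower. In UPS the log2 differences of these 5 genes were -0.11 for Gab1, -0.09 for Grb14, -0.08 for Phlpp1, -0.06 for Foxo4 and 0.15 for Sesn1, none past the threshold.

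**Figure D3:**
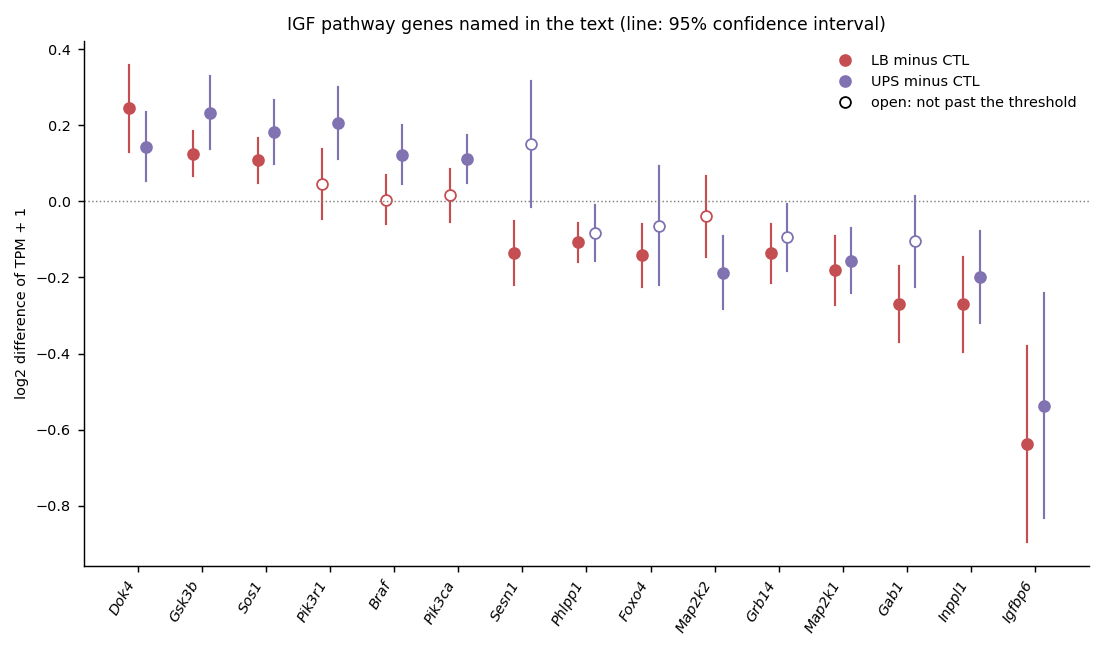
Log2 difference of TPM + 1, with 95% intervals, of 15 pathway genes that passed in LB minus CTL or UPS minus CTL; filled circles passed at an adjusted p under 0.05. Igfbp6 has the largest difference in both (-0.64 in LB and -0.54 in UPS), and Dok4, Gsk3b and Sos1 passed above 0 in both.

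Marker genes of cell types were set beside these differences. All 10 of 10 mature oligodendrocyte markers were lower in LB, with a median log2 difference of -1.06, and 9 of 10 in UPS, with a median of -0.64. Their summed level ranged from 450 to 2409 TPM in LB, 845 to 2914 TPM in UPS and 1160 to 3694 TPM in CTL, and no marker was at 0. Markers of microglia, a source of Igf1 in early postnatal brain, did not pass in either comparison (0 of 10 in each), and their summed level ranged from 392 to 514 TPM in LB, 421 to 636 TPM in UPS and 409 to 488 TPM in CTL. Blood markers were higher at 1 of 5 genes in LB (20%) and 3 of 5 in UPS (60%), beside 3.71% and 5.59% of all genes. None of the 5 choroid plexus or 10 leptomeningeal and fibroblast markers tested passed, but in LB all had positive differences, with median log2 differences of 0.31 and 0.21. In UPS, 3 of the 5 and 9 of the 10 were positive, with medians of 0.05 and 0.07. The summed level of the leptomeningeal and fibroblast markers ranged from 148 to 217 TPM in LB, 94.7 to 203 TPM in UPS and 131 to 181 TPM in CTL. The part of these cell types in the differences of Igf1, Igfbp2 and Igfbp6 was not tested. Of 14 tested glucocorticoid-responsive genes, Cdkn1a was higher in LB (7.14%) and Mt1 and Mt2 were lower (14.3%), beside 3.71% and 3.84% of all genes. In UPS, 5 of the 14 were higher (35.7%) and none lower, beside 5.59% and 4.44% of all genes. Their median log2 difference in UPS was 0.18, which was 0.09 without the female UPS pup 2 at the same counts. These 5 were Tsc22d3 (0.43), Hif3a (0.47), Cdkn1a (0.38), Errfi1 (0.20) and Klf9 (0.19). Of 11 hypoxia-responsive genes none passed in either comparison. The part of glucocorticoids, low oxygen or energy stress in the level of Ddit4 was not tested.

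Variation among pups of the same rearing and sex was set against the marker lists, with the 6 group means removed. Over 110 pairs of a member and a list in 46 libraries, 3 passed a two-sided permutation test within groups (100000 permutations, adjusted over the 110 pairs). Igfbp5 varied with markers of leptomeninges and fibroblasts, with Pearson's r = 0.71 (permutation p = 1e-05, the smallest the permutations can give, adjusted p = 0.0011) and Spearman's rho = 0.60 (permutation p = 7e-05, adjusted p = 0.0077). The r was 0.58 without the 2 libraries farthest from the median of the list, 0.74 in males and 0.70 in females. Igfbp5 also varied with astrocyte markers, with r = 0.60 (permutation p = 3e-05, adjusted p = 0.0017) and rho = 0.50 (permutation p = 8e-04, adjusted p = 0.044), and r = 0.55 without the 2 farthest libraries, 0.34 in males and 0.69 in females. Igfbp2 varied with choroid plexus markers by r = 0.52 (permutation p = 6.6e-04, adjusted p = 0.024), but its rho of 0.37 did not pass (permutation p = 0.018, adjusted p = 0.20). That r was 0.44 without the 2 farthest libraries, 0.72 in males and 0.35 in females, and 0.70 in LB, 0.67 in UPS and -0.35 in CTL. The summed level of the choroid plexus markers ranged from 15.6 to 2622 TPM in LB, 21.6 to 1438 TPM in UPS and 17.5 to 692 TPM in CTL.

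Igf1 varied inversely with the mature oligodendrocyte markers, short of the threshold, with r = -0.46 (permutation p = 0.0049, adjusted p = 0.077) and rho = -0.45 (permutation p = 0.0043, adjusted p = 0.094). The r was -0.40 without the 2 farthest libraries, -0.39 in males and -0.54 in females, and -0.79 in LB, 0.009 in UPS and -0.57 in CTL. Without the female UPS pup 2 it was -0.49 (permutation test, adjusted p = 0.045). Irs1 had r = -0.44 with the same list (permutation test, adjusted p = 0.062), and Igfbp2 had -0.42 (adjusted p = 0.094). The remaining members lay between -0.29 and 0.14. Leaving out the female UPS pup 2, Irs1 had -0.45 (permutation test, adjusted p = 0.045) and Igfbp2 had -0.57. In LB the r was -0.63 for Irs1, -0.76 for Igfbp2 and -0.74 for Irs2, and the others lay between -0.35 and 0.21. Irs1 and markers of the thalamus, a neighbouring tissue, had r = 0.50 (permutation test, adjusted p = 0.058, and 0.045 without the female UPS pup 2). With the microglia markers Igf1 had r = -0.04 (permutation p = 0.80, adjusted p = 0.94). Igf2 and the markers of pericytes and smooth muscle had r = 0.48 (permutation p = 0.0018, adjusted p = 0.050, just above the threshold) and rho = 0.48 (permutation p = 0.0012, adjusted p = 0.045), with r = 0.40 without the 2 farthest libraries, 0.23 in males and 0.62 in females. With the choroid plexus markers Igf2 had r = 0.005 (permutation test, adjusted p = 0.995). With those of leptomeninges and fibroblasts it had r = 0.29 (permutation test, adjusted p = 0.24), and 0.18 without the female UPS pup 2.

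**Figure D4:**
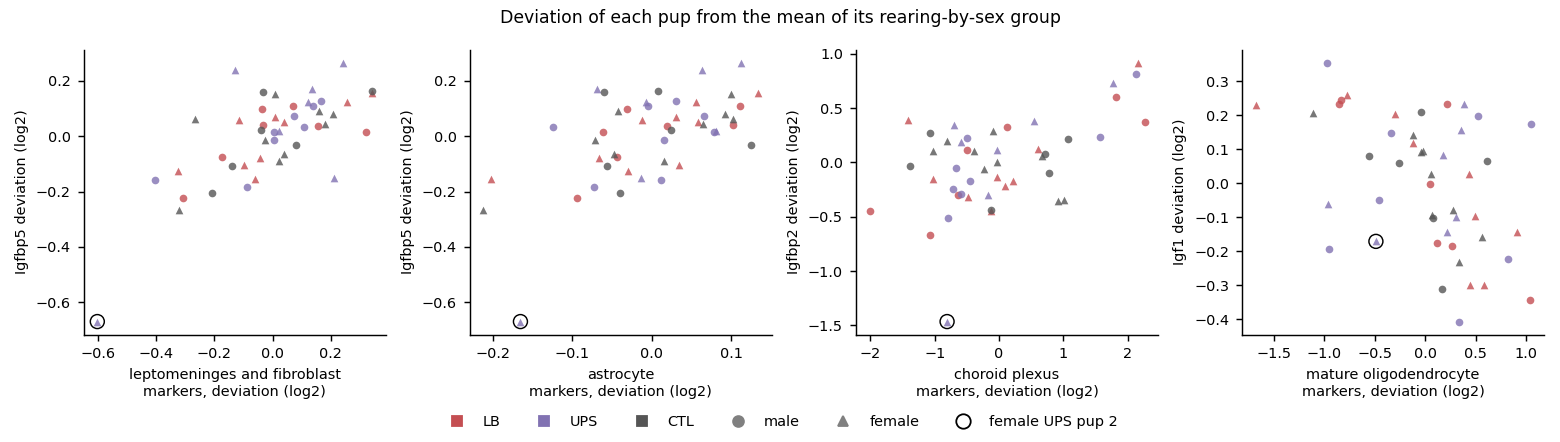
Deviation of a member (vertical axis) and of the mean of a marker list (horizontal axis) from the mean of the pup's rearing-by-sex group, both in log2(TPM + 1), 1 point per pup (46 pups). From left to right r is 0.71, 0.60, 0.52 and -0.46, and the ringed female UPS pup 2 lies far below the other pups for Igfbp5 and Igfbp2.

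Among the members, r over pups was 0.55 for Insr and Irs1, 0.54 for Igf1 and Irs1, 0.54 for Igf1 and Insr, and 0.52 for the receptors Igf1r and Insr, and these were 0.55, 0.54, 0.55 and 0.52 without the female UPS pup 2. That pup set the r of Irs2 with Ddit4, which was 0.56 with it and 0.16 without it, and much of the r of Irs2 with Igfbp4, which was -0.60 with it and -0.26 without it. These are descriptions over 46 libraries with group means removed, which share their library composition. By the same measure, the genes nearest to Igf1 were Myo16 (0.75), Ago2 (0.75) and Tmem178b (0.74), and those nearest to Irs1 were Zbtb10 (0.76), Dcx (0.76), a marker of immature neurons, and Igsf3 (0.75). Nearest to Ddit4 were Nfkbia (0.85), Tob2 (0.84) and Sgk1 (0.74), of which Nfkbia and Sgk1 are glucocorticoid-responsive genes. Without the female UPS pup 2 these values were 0.77 for Nfkbia, 0.85 for Tob2 and 0.59 for Sgk1.

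The receptors lay nearest to Mpdz (0.66), Ep300 (0.66) and Cacna1e (0.64) for Igf1r, and to Abca1 (0.72) and Macf1 (0.67) for Insr. The nearest to Irs2 were Ormdl3 (0.90), Arid1b (0.89) and Phf2 (0.88), which were 0.71, 0.81 and 0.71 without the female UPS pup 2. For Igf2 they were Ccdc189 (0.56), Atp23 (0.55) and Lims1 (0.53), the lowest values of any member. The binding proteins lay nearest to Uck2 (0.81), Slc29a4 (0.81) and Tubb5 (0.80) for Igfbp2, to Slco2b1 (0.69), Dbx2 (0.66) and Rgcc (0.66) for Igfbp4, and to Marcks (0.81), Eif2s1 (0.81) and Bcl2 (0.80) for Igfbp5. Without the female UPS pup 2 those of Igfbp2 were between 0.71 and 0.73, those of Igfbp4 between 0.44 and 0.51 and those of Igfbp5 between 0.65 and 0.68.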

How the data were processed

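Bulk RNA-seq of 46 P17 hippocampi was analysed from a table of TPM for 52636 genes that the authors deposited. Per the labels' processing notes and the methods, reads were aligned to mm10 with HISAT2 and TPM were estimated with StringTie, with versions not given in the sources used here. TPM hold no read depth, so counting error could not be given. Libraries had 21151 to 24708 genes above 0. Further tables with the authors' comparisons (fold changes and p-values) were not used. The DESeq2 test that the notes name needs counts and was not run.

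Groups followed the labelled rearing and sex. The deposited TPM were tested as log2(TPM + 1) using limma 3.58.1 (R 4.3.3), a mean for each of the 4 groups and a trended prior variance, after checks on simulated data. A gene with a text cell was left out. Correlations used Python 3.11.15. The 10 genes and all lists were chosen with earlier results of these data known. Named beside the 10 genes were pathway genes past the threshold in any comparison, Igf2r, Igfbp3, Igfbp6, Igfbp7, Igf2bp2, H19 and Pappa2, marker genes set beside a member, and the 3 tested genes with the highest r to each member (no members and no predicted genes named Gm or ending in Rik). A few genes that this rule names are counted but not reported here by name. Coordinates come from GENCODE vM21, which held 99.7% of the gene identifiers without their version. Genes of the table that overlap a member averaged at most 0.315 TPM. Alternatives were other pseudocounts, filters, scalings, covariates, variance models and sex labels, a replicate block, and each pup left out in turn. Leaving out the female UPS pup 2, and setting list counts without the male LB pup 5, were chosen after seeing the data.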

Additional observations from a re-analysis of the deposited data

Results flagged for a closer look

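In 66 checks of a gene in a rearing-by-sex group (the 10 members and Igfbp6 in 6 groups), 8 had 1 pup far from the rest of its group by Dixon's test at the 95% level, where chance flags about 1 in 20 groups, and in all 8 it was the highest pup. Irs2 was at 90.9 TPM in the female UPS pup 2 (next 45.2 TPM), and Ddit4 in the same pup at 147 TPM (next 95.9 TPM). Igfbp2 was at 77.6 TPM in the female LB pup 9 (next 53.3 TPM) and at 82.5 TPM in the male UPS pup 6 (next 55.0 TPM). In the male LB pup 5, Ddit4 was at 102 TPM (next 86.4 TPM) and Igfbp6 at 12.9 TPM (next 9.58 TPM). Igfbp4 was at 168 TPM in the female LB pup 4 (next 109 TPM), and Igf1r at 27.0 TPM in the male CTL pup 1 (next 23.7 TPM).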

How the results depend on the processing

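Igf1 kept its direction against CTL in every setting tried. With any one pup left out it passed, at log2 differences of 0.25 to 0.31 for LB (adjusted p 0.0037 to 0.033 from limma) and 0.24 to 0.30 for UPS (0.0060 to 0.037). It was lost for UPS with rearing alone in the model (adjusted p = 0.10 from limma). With the sample number as a replicate block it was lost for both LB and UPS (adjusted p = 0.11 and 0.053 from limma). The cause of the changes below was not tested, beyond fewer libraries where pups were left out and more genes tested without a filter.

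For LB against CTL, 999 genes passed. That was 630 with no filter on low TPM, 579 with rearing alone and 1676 with library weights. Of the 10 members 1 passed, but 2 with median-of-ratios scaling, quantile normalization, all 46 libraries in one fit or the female UPS pup 1 as LB, and 3 with the number 9 pups as male or with library weights. Of the pathway list, 2 were higher with rearing alone or all 46 libraries and 7 with library weights, and 5 were lower with no filter or all 46 libraries. Gsk3b in LB was lost with rearing alone (adjusted p = 0.059 from limma) and with all 46 libraries (0.068), and Igfbp6 in UPS with rearing alone (0.052). With 1 pup left out, 677 to 1581 genes passed, 1 to 3 members, and 4 to 7 pathway genes higher and 6 to 8 lower. The upper counts of 1581 genes, 3 members and 7 pathway genes came without the male LB pup 5.

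For UPS against CTL, 1329 genes passed. That was 879 with no filter, 254 with rearing alone, 2626 with library weights and 2169 without the female UPS pup 2. Members called were 2 with quantile normalization, all 46 libraries or without pup 2, 3 with library weights and 0 with rearing alone, which also left 2 pathway genes higher and 1 lower. With 1 pup left out, 913 to 2169 genes passed, 1 to 2 members, 7 to 10 pathway genes higher and 3 to 5 lower, and 0 to 1 genes for the interaction. For UPS against LB, 6 genes passed, but 1 with rearing alone, 24 with all 46 libraries, 98 with library weights, 22 without pup 2 and 0 with the female UPS pup 1 as LB. Pathway genes higher there were 3 with library weights and 1 without pup 2. With 1 pup left out, 4 to 22 genes passed, and 0 to 1 pathway genes were higher. Pairs of a member and a marker list that passed numbered 3, and 8 without pup 2.

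Some small differences that passed in no setting changed sign (log2 values). For UPS against CTL, Igfbp2 was 0.0226 with rearing alone, 0.0849 with library weights and 0.0647 without pup 2, Igf2 was 0.0125 with library weights and 0.0806 without pup 2, Igfbp4 was 0.0288 without pup 2, and Igfbp5 was -0.0069 with quantile normalization and -0.0132 with the female UPS pup 1 left out or as LB. For UPS against LB, Igf1 was 0.0073 with quantile normalization, 6.8e-06 without the number 9 pups and 0.0118 with library weights, and Igfbp4 was 0.0472 without pup 2. With 1 pup left out, ranges that crossed 0 were -0.0381 to 0.0031 for Igf1r and -0.0616 to 0.0145 for Igfbp4 in LB, -0.12 to 0.10 for Igf2, -0.12 to 0.06 for Igfbp2, -0.12 to 0.03 for Igfbp4 and -0.0155 to 0.0625 for Igfbp5 in UPS, and -0.0432 to 0.0147 for Igf1 and -0.10 to 0.05 for Igfbp4 between UPS and LB.

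Pups of 2 groups share numbers, and the labels do not say what the numbers mean. Deviations of same-numbered pups of one sex correlated by over 0.1 in 2 of 14 pairs for LB and CTL, 1 of 13 for UPS and CTL and 2 of 14 for UPS and LB. Males and females of one number within a rearing were not compared, and whether the numbers mark litters or a batch was not tested. With the number as a replicate block, 75 genes passed for LB (0 members, 1 pathway gene higher and 1 lower), 551 for UPS (0 members, 4 higher and 1 lower) and 0 between UPS and LB. Under that block Igf1 had adjusted p of 0.11 for LB and 0.053 for UPS from limma, Gsk3b in LB 0.15 and Igfbp6 in UPS 0.073, Insr in LB was -0.0037, Igfbp4 in UPS was 0.0226, and between UPS and LB Igf1 was 0.0140 and Igf2 -0.0334.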
